A study of Homo sapiens with 8 samples.

Results

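The long noncoding RNAs MALAT1, NEAT1, EWSAT1, SNHG1, GAS5, PVT1, MEG3, H19, DANCR and TUG1 were followed in Ewing sarcoma cells. They were chosen by name, as RNAs that are abundant in many cell types or that have been studied in Ewing sarcoma and other tumors, and they are 10 of the 34792 genes in the summed table. For each gene, the estimated reads of its noncoding RefSeq transcripts were added up. Of these, 9 had reads and were tested, and H19 had none.

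The cells were A673/TR/shFEZF1, that is, the Ewing sarcoma cell line A673 carrying the tetracycline repressor and an shRNA against FEZF1 that doxycycline switches on. A polyclonal population (called bulk in the labels) and clones 3, 5 and 6 were each cultured without doxycycline (control, 4 libraries) or with 1 µg/mL doxycycline for 72 h (4 libraries), and all were kept in blasticidin, puromycin and zeocin. The comparison asked what changes when FEZF1, a zinc finger transcription factor of the developing nervous system, is knocked down. Each clone is 1 line and each origin gave 1 culture per condition, and no cells that received doxycycline without this shRNA were analysed here, so an effect of doxycycline itself cannot be told apart from that of the knock-down.

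A long noncoding RNA is transcribed and usually spliced and polyadenylated like an mRNA, but acts, where it acts, as RNA. MALAT1 and NEAT1 stay in the nucleus, at nuclear speckles and as the scaffold of paraspeckles. SNHG1, GAS5 and DANCR carry small nucleolar RNAs (snoRNAs) in their introns, and their spliced RNA is in several cases a substrate of nonsense-mediated decay. H19 and MEG3 are imprinted RNAs expressed from the maternal copy, and EWSAT1 was described as a target of EWSR1-FLI1, the fusion transcription factor of Ewing sarcoma, which binds repeats of the motif GGAA.

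Sequencing depth was between 26719886 and 42422421 assigned reads per library, and the clone 6 libraries were the shallowest of each condition, with 28170989 and 26719886 reads. FEZF1 was at 96.4, 70.5, 107 and 74.4 CPM (reads of a gene relative to its library's total, scaled by TMM) in the control cultures of the polyclonal population and clones 3, 5 and 6, and at 60.6, 43.0, 60.8 and 36.4 CPM with doxycycline, a fitted log2 fold change of -0.81 ± 0.07 (SE, 4 pairs) with an adjusted p of 0.00594. All fold changes and adjusted p-values here are from edgeR's quasi-likelihood test with the origin of the cells as a block and Benjamini-Hochberg adjustment over 15993 genes, and a gene was called at an adjusted p under 0.05. The Ewing sarcoma markers CD99 and CCND1 had means of 1524 and 2427 CPM in the control cultures. All 8 markers of the list were tested, and 3 of them (37.5%) were called with doxycycline, against 7.63% of all genes tested. NR0B1 rose by a log2 fold change of 0.67, NKX2-2 by 0.30, and LIPI fell by 0.30. Of 8 markers of other cell types, CD3E had no read, ALB and PTPRC had at most 1 and 2.1 reads in any library, VWF had at most 14 reads, 4 were tested and none was called. HBB, a globin gene, was the highest of the list, at 7.28 CPM in control and 8.31 CPM in doxycycline cultures, and was called between origins (adjusted p = 0.0304). The closest to a call with doxycycline was EPCAM, at 0.50 CPM in control and 1.22 CPM in doxycycline cultures (adjusted p = 0.0501). Of the 4, 2 had an unadjusted p under 0.05, as did 3970 of all 15993 genes tested. The control library of clone 5 was deposited with its rows in another order and its lengths in other decimals than the rest.

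The start sites of 3 of the RNAs are shown first: EWSAT1, the only member called with doxycycline, DANCR, which was lower in every pair without being called, and H19, which had no reads. Each window runs from 250 bases before to 50 bases after the RefSeq start (GRCh38.p14), on the strand of the gene. EWSAT1 is on the plus strand (chr15:69080600-69080899), DANCR on the plus strand (chr4:52712144-52712443) and H19 on the minus strand (chr11:2001217-2001516). Capitals mark every GGAA and its reverse complement TTCC.
EWSAT1: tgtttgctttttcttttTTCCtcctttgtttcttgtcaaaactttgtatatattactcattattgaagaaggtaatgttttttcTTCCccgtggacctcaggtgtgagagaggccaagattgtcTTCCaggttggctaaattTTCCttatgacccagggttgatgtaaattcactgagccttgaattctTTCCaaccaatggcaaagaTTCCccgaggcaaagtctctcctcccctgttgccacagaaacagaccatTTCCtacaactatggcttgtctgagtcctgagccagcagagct
DANCR: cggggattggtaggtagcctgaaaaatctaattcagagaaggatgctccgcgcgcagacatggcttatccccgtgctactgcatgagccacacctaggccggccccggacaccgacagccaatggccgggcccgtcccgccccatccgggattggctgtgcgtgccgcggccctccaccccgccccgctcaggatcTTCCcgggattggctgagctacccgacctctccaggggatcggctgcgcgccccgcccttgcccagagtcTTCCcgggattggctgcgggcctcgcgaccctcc
H19: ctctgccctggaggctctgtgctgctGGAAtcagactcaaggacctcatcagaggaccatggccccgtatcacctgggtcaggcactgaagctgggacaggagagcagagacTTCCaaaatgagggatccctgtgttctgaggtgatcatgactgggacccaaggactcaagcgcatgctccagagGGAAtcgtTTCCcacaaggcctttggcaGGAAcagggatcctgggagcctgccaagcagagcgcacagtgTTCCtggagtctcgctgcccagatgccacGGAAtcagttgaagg

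The pair of adjacent copies GGAAGGAA, searched on both strands, was found in none of the 11 windows that RefSeq lists for 8 of the RNAs, against 3.67% of all 35116 promoter windows of the same length (NEAT1 had no entry and PVT1 was not searched). Single GGAA motifs were counted only after these windows had been seen. EWSAT1 and H19 held 7 each, and 8.29% of all windows held at least 7, while DANCR held 2, a number reached or exceeded by 83.8% of windows. A C at the start site followed by 4 bases that are each C or T, the start typical of mRNAs for the translation machinery and described for several snoRNA host genes, was in 0 of the 11 windows and 4.07% of all windows. The start was read at the annotated RefSeq base only, so a run of C and T elsewhere in a window was not counted. These counts describe these windows only.

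The levels of the RNAs can be compared with each other per length, as deposited TPM, in which reads are divided by transcript length and set against the library's total. GAS5 was the highest of the 10 in all 8 libraries, with 522 ± 59.3 TPM (mean ± SD, n = 8), which placed it at rank 248 of the 34792 genes. SNHG1 followed with 215 ± 34.8 TPM and DANCR with 180 ± 36.4 TPM, and these 2 were within each other's spread, SNHG1 being above DANCR in 6 of 8 libraries. All 3 are snoRNA hosts, and each was above NEAT1 in every library.

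Below them came a group with a much lower level. NEAT1 was at 22.8 ± 10.97, MEG3 at 17.1 ± 9.20 and PVT1 at 15.7 ± 2.35 TPM, and these neighbours did not differ beyond their spread, although NEAT1 was above MEG3 in all 8 libraries. EWSAT1 was at 9.79 ± 4.28, MALAT1 at 9.49 ± 4.85 and the matched part of TUG1 at 8.27 ± 3.43 TPM, again within their spread, with MALAT1 above EWSAT1 in 4 of 8 libraries. MALAT1, often among the most abundant nuclear RNAs of human cells, was thus at rank 8310 and NEAT1 at rank 5444 in these libraries, so the description as abundant held for the snoRNA hosts and not for these 2. The libraries were made by poly(A) selection, and the 3′ end of mature MALAT1 and of the long form of NEAT1 has no poly(A) tail, so their TPM is the level after that step and its part in these ranks was not tested.

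**Figure D1:**
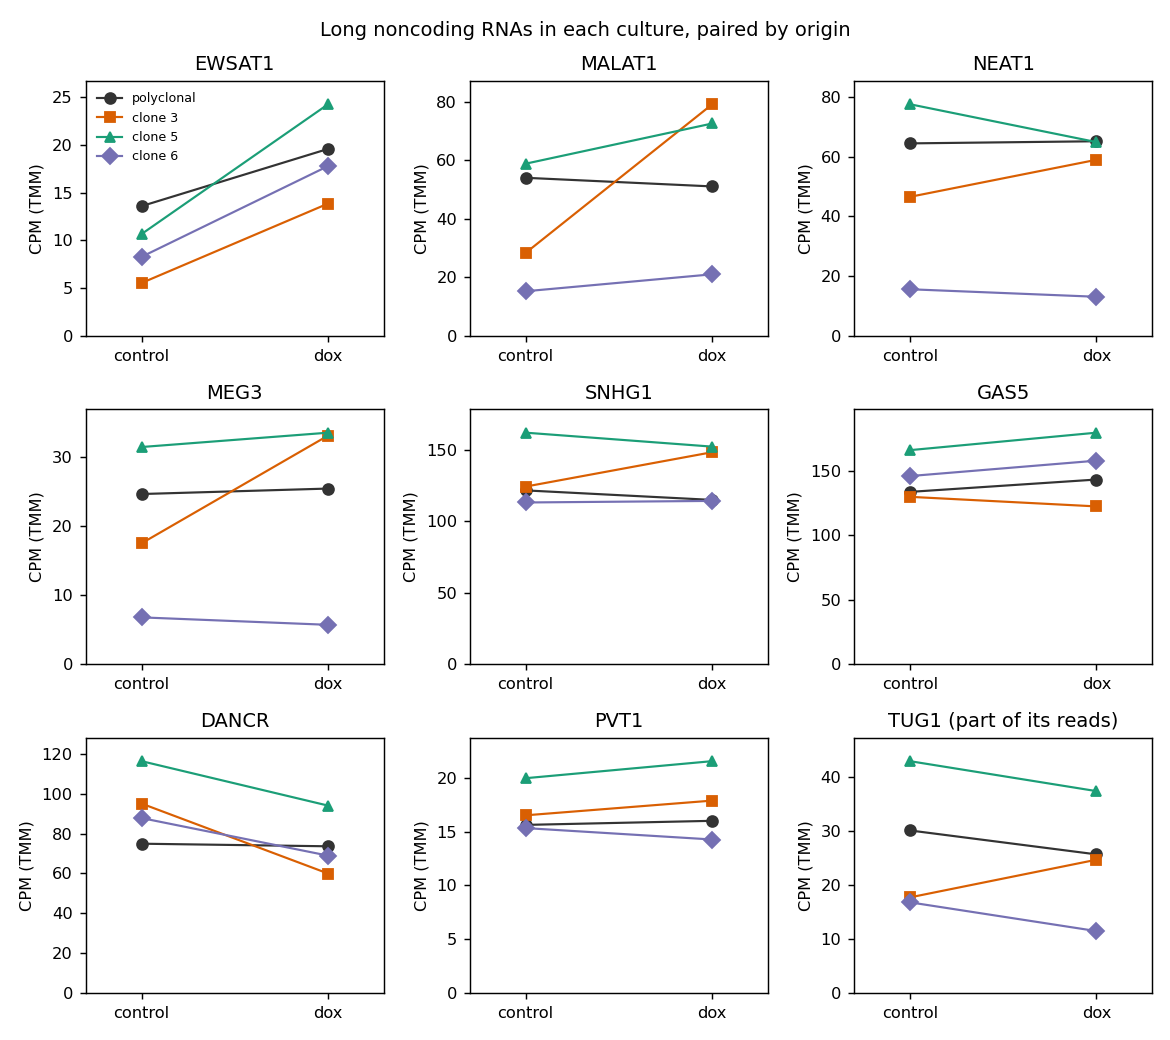
Level of 9 long noncoding RNAs in each culture (y axis, CPM scaled by TMM, from 0; x axis, control and doxycycline), with 1 line for each origin. EWSAT1 rises in all 4 origins, and clone 6 lies below every other culture for MALAT1, NEAT1 and MEG3.

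EWSAT1, the Ewing sarcoma-associated transcript 1 (chr15:69080850-69095824, GRCh38), about doubled with doxycycline, and it was the only member that passed the test. In control cultures it was at 13.6 CPM in the polyclonal population and at 5.54, 10.7 and 8.28 CPM in clones 3, 5 and 6. With doxycycline the same origins were at 19.6, 13.9, 24.3 and 17.8 CPM. Every doxycycline culture was above every control culture, the closest being the doxycycline culture of clone 3 and the control culture of the polyclonal population, so the groups did not overlap, which held for 4.94% of all genes tested. The fitted log2 fold change was 1.03 ± 0.14 (SE, 4 pairs; adjusted p = 0.00995), from 9.52 ± 3.43 to 18.9 ± 4.31 CPM (mean ± SD, n = 4). The rise was smallest in the polyclonal population, at a log2 ratio of 0.51, and 1.25, 1.15 and 1.06 in clones 3, 5 and 6; whether origins differed in it could not be tested, since each had 1 culture per condition.

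The whole of EWSAT1 was a single transcript (NR_026949.1, 2527 bases), with 176 to 731 reads per library, and its reads were 99.3% of those that the authors' deposited mean implies. The call was lost without the pair of clone 5 (adjusted p = 0.0585, log2 fold change 0.96) and in edgeR without the block (0.367, log2 fold change 0.99), a fit that called 1 gene in all. DESeq2 without the block gave an adjusted p of 0.0397, in a fit that called 1.43% of 14662 genes. Its neighbour GLCE, an enzyme of heparan sulfate synthesis, was at 91.7 ± 16.4 and 98.3 ± 10.1 CPM (mean ± SD, n = 4; adjusted p = 0.360), on 73.4% of the reads that the authors' mean implies.

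Thus 1 of the 9 RNAs tested was called with doxycycline, and it was higher, against 7.63% of all genes called and 3.73% called higher. Beside EWSAT1, MALAT1 and DANCR had an unadjusted p under 0.05, as did 3970 of all 15993 genes tested. EWSAT1 and DANCR were the 2 members that moved in 1 direction in all 4 pairs, which 33.3% of all genes tested did.

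DANCR (chr4:52712394-52720697), a snoRNA host described as an inhibitor of differentiation, was lower with doxycycline in each pair without passing the test. The control cultures of the polyclonal population and clones 3, 5 and 6 were at 74.9, 95.04, 116 and 87.8 CPM. With doxycycline they were at 73.6, 59.9, 94.0 and 68.9 CPM. The ranges of the groups overlapped, and the polyclonal pair was nearly level while clone 3 had the widest difference. The fitted log2 fold change was -0.34 ± 0.10 (SE), with an unadjusted p of 0.00873 and an adjusted p of 0.0767, and leaving out 1 pair gave adjusted p-values of 0.0460 without the polyclonal population and 0.162, 0.197 and 0.195 without clones 3, 5 and 6. DESeq2 with the block called it (adjusted p = 0.0166), in a fit that called 13.8% of 13627 genes. USP46, the deubiquitinase gene next to DANCR, fell by 0.37 on the log2 scale, from 34.7 ± 2.34 to 26.8 ± 1.46 CPM (mean ± SD, n = 4; adjusted p = 0.0296). It is named here, like MYC and SMTN below, because it was called. Of 20 protein-coding genes beside or overlapping the members, 13 were tested, with 1 called higher and 2 lower (23.1%), against 7.63% of all genes. Whether neighbours and members change together was not tested.

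MALAT1 (chr11:65497738-65506516) showed its widest difference in 1 clone. In control cultures it was at 54.0, 28.4, 58.9 and 15.3 CPM in the polyclonal population and clones 3, 5 and 6. In doxycycline cultures it was at 51.1, 79.2, 72.6 and 21.1 CPM. Clone 3 alone had a log2 ratio of 1.46, the polyclonal population was nearly level at -0.08, and the groups overlapped. The fitted log2 fold change of 0.53 ± 0.22 (SE) had an adjusted p of 0.186, and without clone 3 it was 0.21 with an adjusted p of 0.310.

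NEAT1 (chr11:65422798-65445540), on the same stretch of chromosome 11, had a log2 fold change of -0.03 ± 0.11 (SE) with doxycycline and an adjusted p of 0.908. It was at 64.5, 46.6, 77.6 and 15.6 CPM in the control cultures, in the same order of origins. With doxycycline it was at 65.2, 59.0, 64.9 and 13.1 CPM. The pairs went both ways, 2 up and 2 down, and the differences between origins were far wider than those between conditions.

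MEG3 (chr14:100826108-100861026), described as a growth inhibitor, was at 24.6, 17.5, 31.4 and 6.79 CPM in control cultures and at 25.4, 33.0, 33.5 and 5.72 CPM with doxycycline. Clone 3 again moved most, with a log2 ratio of 0.90, and the log2 fold change of 0.23 ± 0.17 (SE) had an adjusted p of 0.460. The partners of MEG3 in its imprinted domain, DLK1, RTL1 and DIO3, which are expressed from the paternal copy, had at most 4, 9 and 7 reads in any library. MEG8 and MEG9, maternal noncoding RNAs downstream of MEG3, were tested at means of 2.61 and 0.46 CPM in control and 3.39 and 0.82 CPM in doxycycline cultures, and neither passed the test (adjusted p = 0.284 and 0.154).

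The remaining snoRNA hosts differed little between conditions. SNHG1 (chr11:62851978-62855885), with 9 annotated snoRNA genes inside it, ranged from 113 to 162 CPM in control and from 114 to 152 CPM in doxycycline cultures, a log2 fold change of 0.02 ± 0.07 (SE) with an adjusted p of 0.868. GAS5 (chr1:173863901-173869045), named for its accumulation in growth-arrested cells and holding 11 snoRNA genes, ranged from 130 to 166 and from 123 to 180 CPM, with 0.06 ± 0.06 (SE) and an adjusted p of 0.564. GAS5 shares part of its locus with ZBTB37, at 26.7 ± 12.4 and 17.8 ± 2.76 CPM (mean ± SD, n = 4; 61.4% of its implied reads matched), so that reads could be divided between them only as far as Salmon resolved it.

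PVT1 (chr8:127794524-128101256) lies next to MYC and is often gained with it in tumors. It ranged from 15.3 to 19.96 CPM in control and from 14.3 to 21.5 CPM in doxycycline cultures, with a log2 fold change of 0.04 ± 0.08 (SE) and an adjusted p of 0.812. MYC, the growth-promoting transcription factor, rose by 0.26 on the log2 scale, from 177 ± 10.9 to 213 ± 27.4 CPM (mean ± SD, n = 4; adjusted p = 0.0442), in all 4 pairs. Whether the 2 neighbours differed in their response was not tested.

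TUG1 (chr22:30969265-30979395), described in chromatin repression and retinal development, is listed in the RefSeq table as protein coding, and only 2 noncoding transcripts matched. These held 26.9% of the reads that the authors' mean for TUG1 implies, so its values are those of a part of the gene. That part ranged from 16.8 to 42.9 CPM in control and from 11.4 to 37.3 CPM in doxycycline cultures, with a log2 fold change of -0.12 ± 0.15 (SE) and an adjusted p of 0.688. The gene beside it, SMTN, which encodes the actin-binding protein smoothelin, fell by 0.32 on the log2 scale, from 25.3 ± 8.86 to 20.3 ± 7.21 CPM (mean ± SD, n = 4; adjusted p = 0.0397).

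H19 (chr11:1995176-2001266) had 0 reads on its 3 transcripts in every library, which allows up to 3 reads, or 0.0707 to 0.112 CPM of all assigned reads at these depths (counting error only). IGF2, the growth factor gene that shares its imprinted domain, had between 3 and 17 reads and was not tested. MRPL23, the mitochondrial ribosomal protein gene whose span overlaps that of H19, was at 23.6 ± 3.43 and 21.9 ± 6.23 CPM (mean ± SD, n = 4). Whether any of these reads fell within the span of H19 was not tested.

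**Figure D2:**
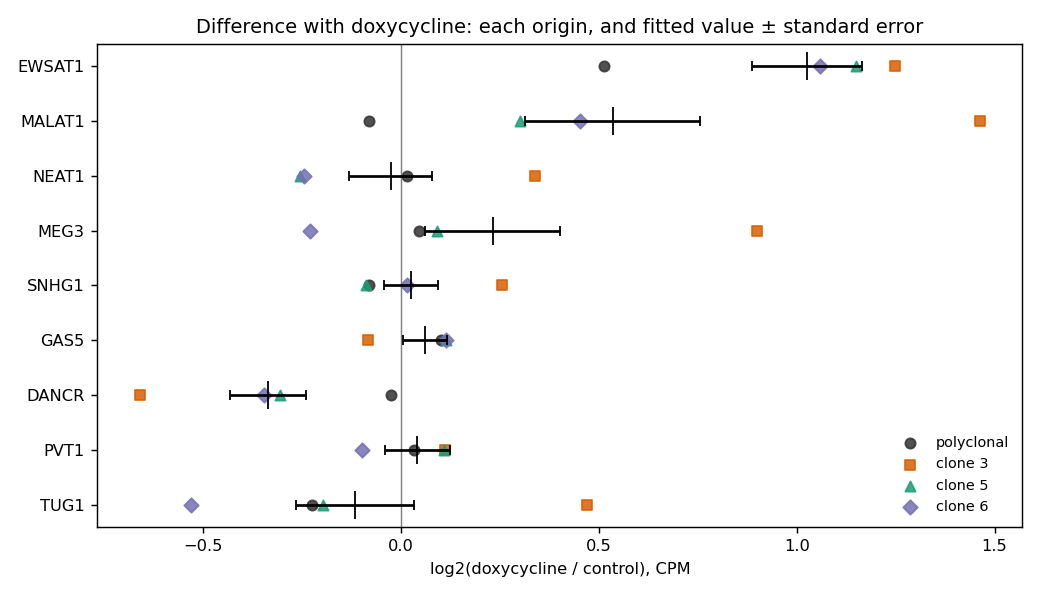
Log2 ratio of doxycycline over control for 9 RNAs (x axis; for single origins from CPM with 0.5 added), with 1 symbol for each origin and, in black, the fitted log2 fold change with its SE. The symbols of EWSAT1 all lie above 0.5 and those of DANCR all lie below 0, while clone 3 lies far to the right for MALAT1 at 1.46 and MEG3 at 0.90.

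The wider differences were those between origins. With doxycycline in the model, a joint test of the 4 origins called 8 of the 9 RNAs, against 39.4% of all genes tested. DANCR was the exception, with an adjusted p of 0.0503. In simulated data this joint test made 38 false calls of 223, so its calls near the threshold are less certain. The median range between origins was 0.90 on the log2 scale over the 9 RNAs and 0.57 over all genes tested, and for 8 of the 9 it exceeded the size of the doxycycline difference, as it did for 92.4% of all genes.

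Clone 6 had far less NEAT1, MALAT1 and MEG3 than the other origins. NEAT1 was at 13.1 and 15.6 CPM in the clone 6 cultures and between 46.6 and 77.6 CPM in the other 6, a log2 difference of -2.17 from the polyclonal population (adjusted p of the joint test 0.000404). MEG3 was at 5.72 and 6.79 CPM against 17.5 to 33.5 CPM, a log2 difference of -1.99 (joint test 0.00270). MALAT1 was at 15.3 and 21.1 CPM against 28.4 to 79.2 CPM, a log2 difference of -1.58 (joint test 0.0148).

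For all 3 RNAs the cultures of clone 6 did not overlap those of any other origin, and the share of all genes with such a gap was not counted. By another measure, 3 of the 9 RNAs were lower in clone 6 than in the polyclonal population by more than 1 on the log2 scale. This held for 10.2% of all genes tested. The matched part of TUG1, at -0.99, was just short of that. Without clone 6, the joint test over the other 3 origins gave adjusted p-values of 0.135 for NEAT1, 0.307 for MEG3 and 0.616 for MALAT1, and it called 3 of the 9 RNAs (EWSAT1, GAS5 and TUG1).

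The snoRNA hosts did not share this pattern. GAS5 in clone 6 was 0.13 above and SNHG1 0.06 below the polyclonal population on the log2 scale, and DANCR was 0.06 above it. Clone 5 had the highest fitted level of all 3, with differences from the polyclonal population of 0.41 for SNHG1, 0.32 for GAS5 and 0.49 for DANCR, and of 0.39 for PVT1. The joint test gave adjusted p-values of 0.0224 for SNHG1, 0.0148 for GAS5 and 0.0423 for PVT1. Without clone 5 none of these 3 was called between origins (adjusted p = 0.173, 0.120 and 0.421), and 5 of the 9 RNAs were.

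EWSAT1 was lowest in clone 3, at -0.90 on the log2 scale from the polyclonal population (joint test 0.0260), and it was at -0.03 in clone 5 and -0.44 in clone 6. Without clone 3 the joint test for EWSAT1 gave an adjusted p of 0.164.

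**Figure D3:**
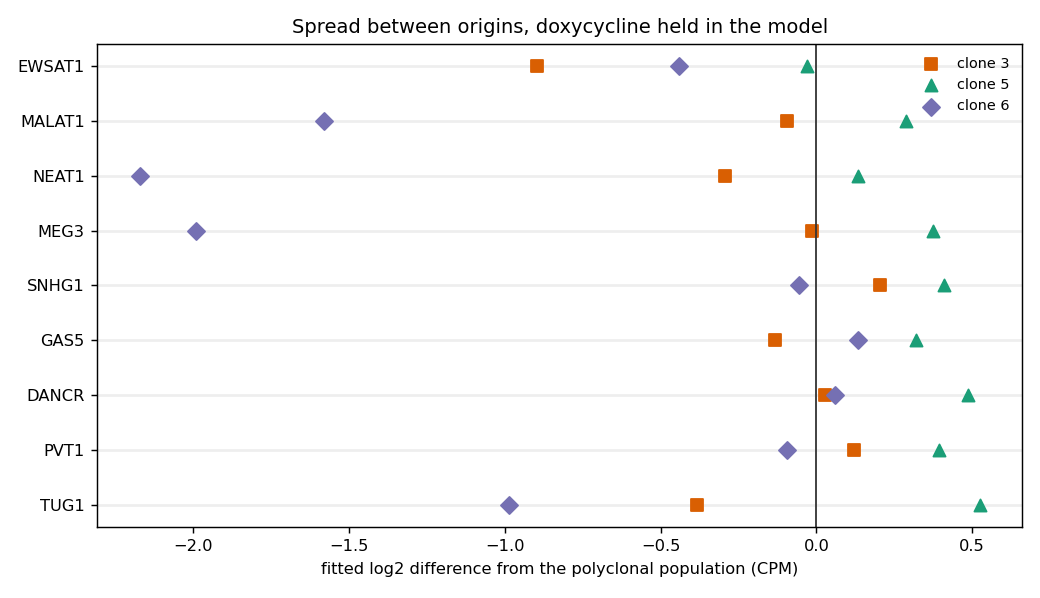
Fitted log2 difference of clones 3, 5 and 6 from the polyclonal population (x axis) for 9 RNAs, with doxycycline in the model. Clone 6 lies at -2.17 for NEAT1, -1.99 for MEG3 and -1.58 for MALAT1, but within 0.2 of the polyclonal population for the 3 snoRNA hosts and PVT1.

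Some RNAs that have no poly(A) tail were low in clone 6 as well, most of them in its doxycycline culture. Of 16 such RNAs, 6 had enough reads to be tested and 3 of these were called between origins, against 39.4% of all genes tested. Only 1 of the 6 was lower in clone 6 than in the polyclonal population by more than 1 on the log2 scale, against 10.2% of all genes. SCARNA12, a guide RNA of Cajal bodies, was low in both clone 6 cultures, at 1.005 CPM in control and 1.14 CPM with doxycycline against 2.36 to 4.55 CPM elsewhere. RN7SL1 and RN7SL2, RNAs of the signal recognition particle, were at 13.5 and 14.03 CPM in the control culture of clone 6, close to clone 3 at 13.2 and 14.9 CPM, and at 5.13 and 5.72 CPM in its doxycycline culture, the lowest of all libraries. RN7SK, RMRP and RPPH1, which were not called, also had their lowest level in that doxycycline culture, at 2.15, 0.463 and 0.799 CPM, while in control cultures RMRP was at 1.45 CPM in clone 6 and at 1.42 CPM in clones 3 and 5. Over the 6, the median difference of clone 6 from the polyclonal population was -0.77 on the log2 scale, against -0.01 over all genes tested. NEAT1 and MALAT1 were low in the control culture of clone 6 too. Their part in the differences of MALAT1 and NEAT1 was not tested. None of the 6 was called with doxycycline, and none had an unadjusted p under 0.05.

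Over the 8 libraries, NEAT1 was followed most closely by LINC01722, SNORD12 and LINC00926, with a Pearson r of log2 CPM of 0.995, 0.995 and 0.993. The 3 were picked for the highest r among all genes tested, so a high r was built into the choice. All 3 were at or below 2.18 CPM in every library, with their lowest level in clone 6. The 8 libraries come from 4 origins, so they are not 8 independent points.

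The reads of each gene could be followed to its transcripts. NEAT1 was almost all the short form (NR_028272.1, 3756 bases), with 96.1% to 98.1% of its reads, and the long form (NR_131012.1, 22743 bases), which is needed to build paraspeckles, held between 1.9% and 3.9%. The short form is contained in the long one, so the split rests on the estimate that Salmon made. The long form has no poly(A) tail, so these are shares after poly(A) selection and not those in the cells. In clone 6 the long form was at 2.6% and 1.9%, which rest on 10.1 and 5.91 estimated reads of that form, against 42.9 to 98.2 in the other libraries, so these shares cannot be ranked below the rest at this depth.

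MALAT1 was divided between a transcript of 8545 bases (NR_144567.1) and one of 8302 bases (NR_144568.1), and the split ran from 0% to 100% between libraries with no order by condition. The 2 are close in length, and only the sum over all MALAT1 transcripts is used for its level. Between 47.4% and 60.1% of the SNHG1 reads came from NR_003098.2, and GAS5 was carried by NR_002578.3 (35.3% to 50.3%) and NR_152523.1 (28.7% to 44.7%). MEG3 had reads on 13 of 15 transcripts, with the highest share, 26.7% to 43.9%, on NR_046473.1, of 9701 bases. DANCR was almost all NR_024031.2 (99.0% to 99.7%), and PVT1 was 1 transcript (NR_003367.3).

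**Figure D4:**
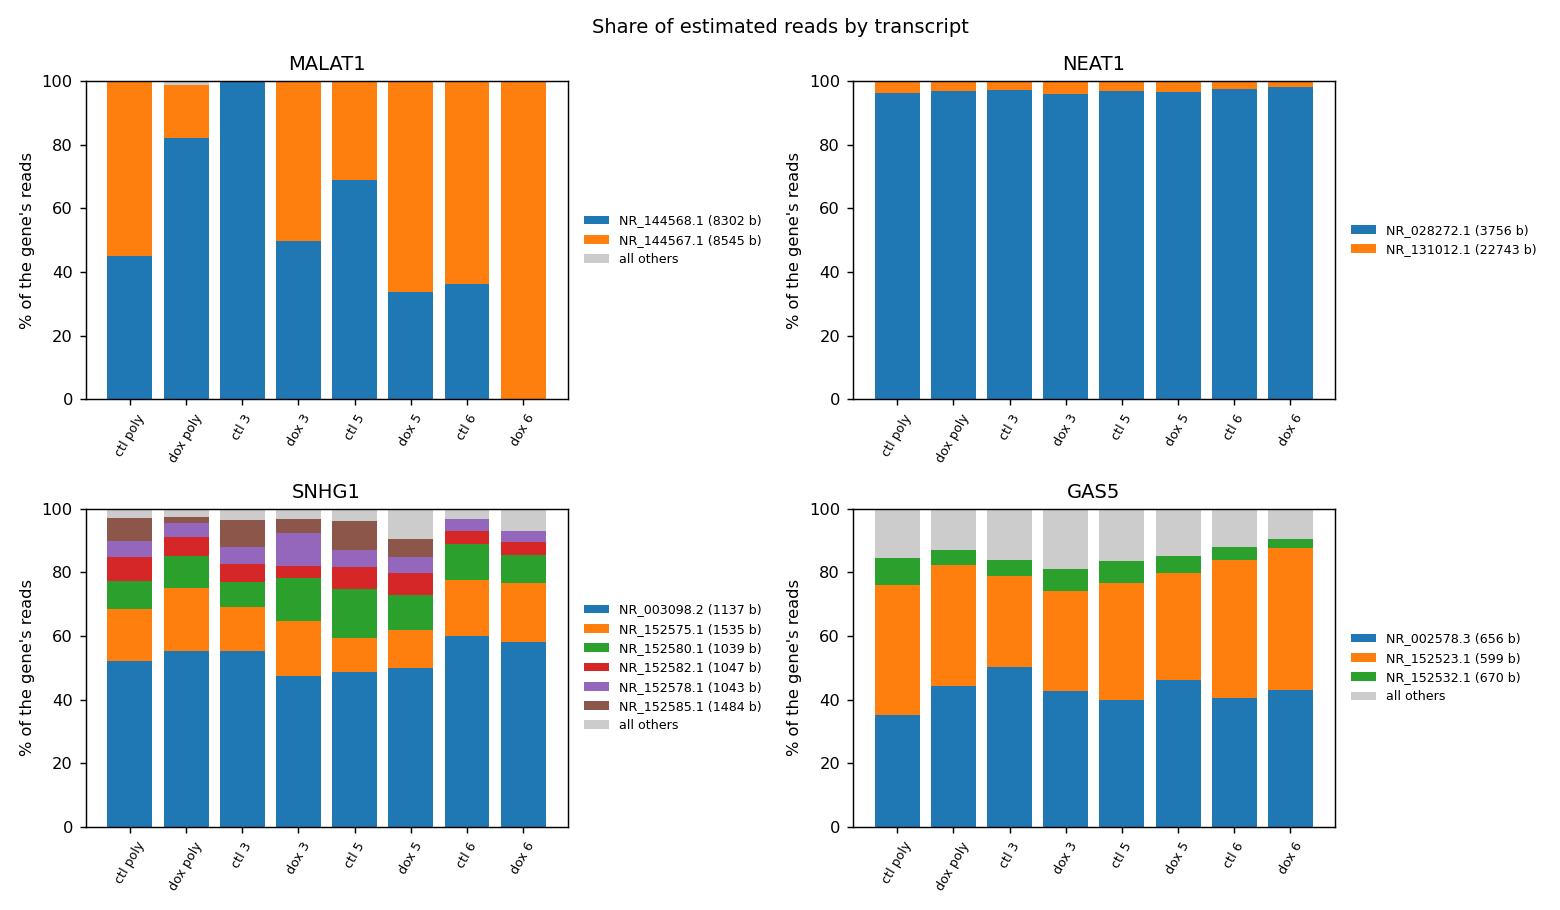
Share of each gene's estimated reads by transcript (y axis, percent) in the 8 libraries (x axis; ctl, control; poly, polyclonal), for transcripts with at least 5% of the reads and both NEAT1 forms, others in grey. After poly(A) selection, NEAT1 is 96.1% to 98.1% short form in every library, while the 2 MALAT1 transcripts exchange reads from 0% to 100%.

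The gene groups around these RNAs differed in how many of their members were called with doxycycline, against 7.63% of all genes. The groups were chosen with earlier results of these data known, so these shares are a description only. Of 29 snoRNA host genes, 27 were tested, SNHG1, GAS5 and DANCR among them, and 1 was called (3.70%): SNHG3 fell by 0.40 on the log2 scale (adjusted p = 0.0376). The median log2 fold change of the group was -0.03, against 0.00 over all genes tested. None of 10 genes of nonsense-mediated decay was called in the edgeR fit used throughout. Before adjustment, 3 of them had a p under 0.05, as did 3970 of all 15993 genes tested. UPF1, the RNA helicase at the center of the pathway, was at 187 ± 16.8 and 158 ± 24.1 CPM (mean ± SD, n = 4; adjusted p = 0.0610). DESeq2 with the block called 1 of the 10, as did edgeR with no filter or with at least 10 counts in every library.

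Of 22 genes for paraspeckle proteins, all were tested, 1 was called higher and 2 lower (13.6% in all), with a median log2 fold change of -0.10. AKAP8L, a nuclear matrix protein, rose by 0.39 (adjusted p = 0.0118). CIRBP, a cold-inducible RNA-binding protein, fell by 0.43 (0.0212). The core paraspeckle proteins SFPQ and NONO were at 614 ± 15.1 and 555 ± 41.96 CPM, and at 876 ± 47.1 and 815 ± 47.4 CPM, in control and doxycycline cultures (mean ± SD, n = 4; adjusted p = 0.182 and 0.239). Of 12 genes that act at the 3′ end of MALAT1 and NEAT1, mostly of RNase P and of its relatives, POP1 was called, and rose by 0.28 (adjusted p = 0.0451).

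Of 33 other long noncoding RNAs, 25 were tested, 3 were called higher and 2 lower, with a median log2 fold change of 0.08. The 5 are 20% of those tested against 7.63% of all genes, which is a description, as for the other groups. The alternatives called from 0 of them (among others without clone 5) to 7 (at least 10 counts in every library). MIR22HG, the host of a microRNA, rose by 0.91, from 8.07 ± 4.43 to 15.96 ± 10.3 CPM (mean ± SD, n = 4; adjusted p = 0.0244). CYTOR, a cytoplasmic RNA, rose by 0.46 (0.0433). FEZF1-AS1, transcribed in antisense next to the targeted gene, rose by 0.45 (0.0190), though FEZF1 itself fell. The study reports by RT-qPCR that the knock-down left FEZF1-AS1 unaffected, in A673 and other Ewing sarcoma lines. The rise here differs from that, and the reason was not tested. Whether Salmon used strand was not stated, so reads of FEZF1 and FEZF1-AS1 may not be fully separated. NORAD, which binds Pumilio proteins, fell by 0.43 (0.0392), and HCG18 fell by 0.30 (0.0475).

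Between origins, 15 of these 25 RNAs were called, against 39.4% of all genes, and 5 of the 25 were lower in clone 6 than in the polyclonal population by more than 1 on the log2 scale, against 10.2% of all genes. KCNQ1OT1, the nuclear RNA of another imprinted domain, was at 9.29 and 14.3 CPM in clone 6 and between 19.2 and 41.2 CPM elsewhere, a log2 difference of -1.53. MEG9 was at most 0.084 CPM in clone 6 and at least 0.557 CPM elsewhere, a log2 difference of -3.34. The clone 6 level is under that of 3 reads (0.106 and 0.112 CPM of all assigned reads), so the size of this difference is poorly measured. MEG9 passed the filter through the other origins. MIAT was at -2.70, MIR17HG, the host of a microRNA cluster, at -1.53, and MIR503HG at -1.25 with no call (adjusted p = 0.311). None of the 27 snoRNA hosts, the 22 paraspeckle genes or the 10 decay genes tested was that low in clone 6.

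**Figure D5:**
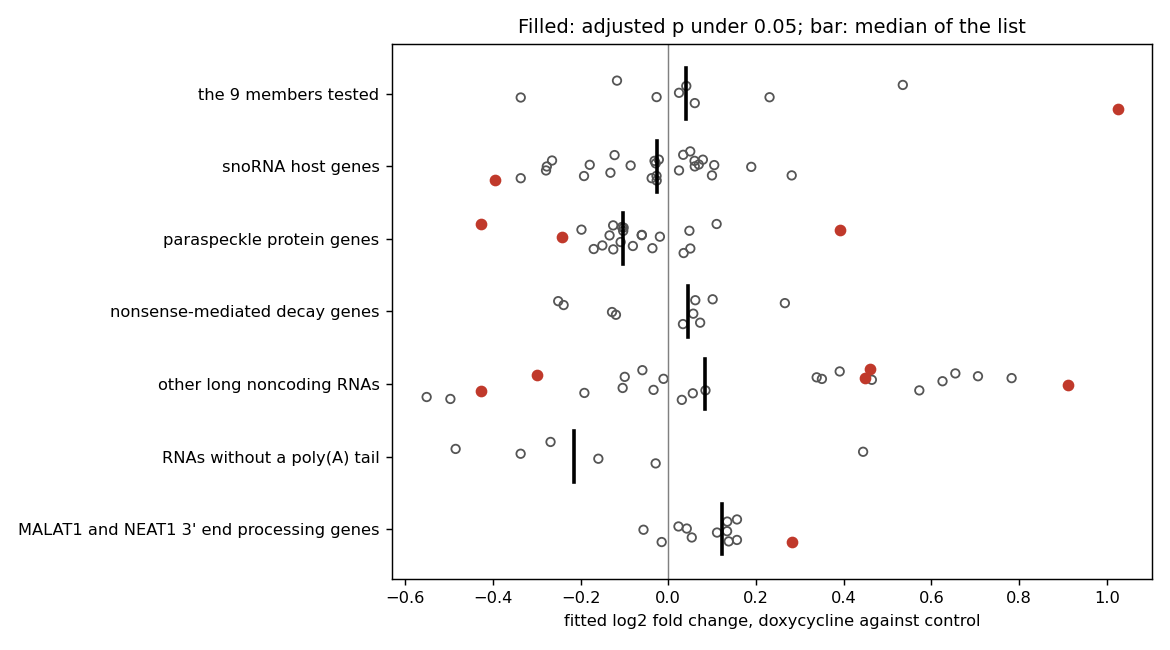
Fitted log2 fold change with doxycycline (x axis) for the 9 RNAs and the genes of 6 lists, 1 point for each gene, filled where the adjusted p was under 0.05, with the median of each list as a bar (the snoRNA host list holds 3 of the 9 RNAs). EWSAT1, at 1.03, is the highest point shown, and the called genes of the lists run from -0.43 to 0.91.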

How the data were processed

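The authors prepared poly(A)-selected stranded libraries from 8 cultures and, per the labels and the study's methods, quantified GRCh38 RefSeq transcripts with Salmon and compared groups with DESeq2 (2.11.40.6). The deposited files hold estimated counts and TPM for 158867 transcripts in each library. The deposited table of the authors' comparison holds a mean of normalized signal (the authors' mean, used here to see how complete each gene was), and log2 fold changes, scores, and p-values, which were not used. Whether Salmon was run with strand settings was not given in the sources used here.

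Estimated counts were summed for 115325 transcripts (72.6%) that a RefSeq gene table gave a symbol, and rounded. The summed reads were 89.9% to 91.1% of each library. Genes were filtered with filterByExpr, scaled by TMM and fitted in edgeR 4.0.16 (R 4.3.3) by the quasi-likelihood test with origin as the replicate block, as cultures with the same label come from the same cells. Deviations from the group means correlated by 0.406 to 0.590 within an origin and by at most 0.179 between origins. Origins were compared jointly in the same fit. SE was the log2 fold change over the square root of F. In simulated data for the doxycycline comparison (15993 genes, 200 changed) the fit found 90.5%, with 18 false calls of 199. P-values measure the spread between these cultures, and no interaction of origin and doxycycline could be fitted. TPM, as deposited, was summed for levels. Named genes were the members, FEZF1, up to 4 called genes of each list, locus partners, called neighbours and the 3 genes most like the member with the largest F between origins. Others are named where a small count or a contrast required it, after their values were seen, and 1 called gene of the paraspeckle list is not reported here. Members and lists were chosen with earlier results of these data known. Alternatives were no block, DESeq2 1.42.0 with and without it, DESeq2's size factors, no filter, at least 10 counts in every library, curated transcripts only, an effective-length offset, and the removal of each origin in turn.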

Additional observations from a re-analysis of the deposited data

Results flagged for a closer look

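NEAT1 in the doxycycline culture of clone 6 was at 13.1 CPM, while the other 3 doxycycline cultures were at 59.0 to 65.2 CPM. It was far from the others in a group of 4 by Dixon's criterion, with a gap of 0.881 of the group's range, above the 95% critical value for 4 samples. Among 22 groups of 4 libraries examined it was the only one, and about 1 in 20 groups, here 1.1, would be picked out by chance. The control culture of clone 6 was also low, at 15.6 CPM.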

How the results depend on the processing

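With origin as the replicate block, 1221 genes were called with doxycycline. Without the replicate block edgeR called 1, none of the RNAs followed here, no snoRNA host, no paraspeckle gene and none (0) of the other long noncoding RNAs; EWSAT1 and FEZF1 kept their direction and lost the call. DESeq2 called 1881 with the block (2 of the RNAs, 3 snoRNA hosts, 5 paraspeckle genes, 1 decay gene) and 210 without it (0 snoRNA hosts, 0 paraspeckle genes, 1 other long noncoding RNA). No filter and at least 10 counts in every library each gave calls for 2 of the RNAs (EWSAT1 and DANCR), 2 snoRNA hosts and 1 decay gene. Curated transcripts alone left 493 genes, 0 snoRNA hosts and 1 other long noncoding RNA called, and 4054 genes between origins. Leaving out 1 origin gave between 175 (without clone 5) and 699 genes called (without the polyclonal population; 461 without clone 3, 230 without clone 6), 0 to 2 of the RNAs, 0 to 3 snoRNA hosts, 0 to 2 paraspeckle genes and 0 to 2 other long noncoding RNAs. Between origins it gave 2970 (without clone 6) to 5300 genes in place of 6300, and 3 to 8 of the RNAs in place of 8. Log2 fold changes near 0 changed sign when an origin was left out: NEAT1 ran from -0.157 to 0.0379 (above 0 without clone 5 and without clone 6), SNHG1 from -0.0532 to 0.0556 and MEG3 from -0.0144 to 0.346 (below 0 without clone 3), and TUG1 from -0.315 to 0.00785 (above 0 without clone 6). The cause of these shifts was not tested. Of 120 alternatives for single genes, 108 kept direction and call, but most of these were for RNAs with no call to lose. Of 13 fits, EWSAT1 was called in 11, FEZF1 in 12 and DANCR in 4, and the other RNAs tested in 0. EWSAT1, with 176 to 731 reads a library, is measured more coarsely than GAS5 or SNHG1, and H19 only as a limit.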
